A study of Homo sapiens with 4 samples.

Results

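The alpha-arrestins ARRDC1, ARRDC2, ARRDC3, ARRDC4 and TXNIP, and the glucose-sensing factors MLXIP, MLXIPL and MLX, were followed through mRNA sequencing of HCT116 cells, an established human colon cancer line. They are 8 of the 20263 genes in the count table, found by their Ensembl identifiers, and all 8 had a row. The study treated HCT116 cells with 7A, which its title calls a neratinib derivative, and compared them with cells given DMSO, for 24 h in DMEM with 10% serum, at a dose of 7A that the labels do not state. There were 2 libraries per group, and the question put by the design text was how 7A acts in colon cancer. The members were chosen by gene name, and the family was selected on the measured fold change of ARRDC4, known from this same contrast to be the deepest fall among well-expressed genes, so the members' differences are given as a description, without p-values of their own.

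Alpha-arrestins are membrane-trafficking adaptors. Most of them carry PPxY motifs that recruit ubiquitin ligases of the NEDD4 family to receptors and transporters. TXNIP also binds thioredoxin, and both TXNIP and ARRDC4 restrain glucose uptake by promoting removal of glucose transporters from the cell surface. MLXIP encodes MondoA and MLXIPL encodes ChREBP, transcription factors that sense phosphorylated glucose, pair with the small factor MLX and bind carbohydrate response elements, which are paired E-box-like sites with a short spacer. TXNIP and ARRDC4 are the best known direct targets of MondoA.

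Library totals lay between 29769568 and 31120459 counts with DMSO and between 49924044 and 61605005 with 7A. Values are counts per 1000000 scaled by TMM (CPM), and differences are edgeR's log2 ratios of 7A to DMSO ± their standard error; a gene was called when its adjusted p was under 0.05. Where 0 counts were seen, up to 3 were allowed at 95% confidence, which is 0.0880 and 0.0918 CPM in the DMSO libraries and 0.0649 and 0.0543 CPM in the 7A libraries, counting error only. Of 10 colon epithelial markers 6 had a mean of at least 1 CPM, their list summed to 3667 to 4119 CPM with DMSO and 6903 to 7243 CPM with 7A, and CDX1 was at 0 counts in all 4 libraries. Of 11 markers of other cell types 3 (CD68, ACTA2 and COL1A1) reached 1 CPM, with list sums of 97.0 to 107 and 102 to 143 CPM. CD3E and HBB were at 0 counts. The part of these shifts in the results below was not tested.

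Of the 8 members 7 had enough counts to be tested, and TXNIP did not. The tested members split: ARRDC4 and ARRDC3 were called lower, ARRDC1 and MLX were called higher, and ARRDC2, MLXIP and MLXIPL were not called. Over all 14026 tested genes 48.4% were called, 23.9% higher and 24.6% lower, so 4 of 7 is set beside a large background, and nothing is read from it because this contrast led to the choice of the set. The groups did not overlap for 6 of the 7 tested members, against 78.4% of all tested genes. In bulk RNA, fewer cells expressing a gene and less of its RNA per cell cannot be told apart.

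**Figure D1:**
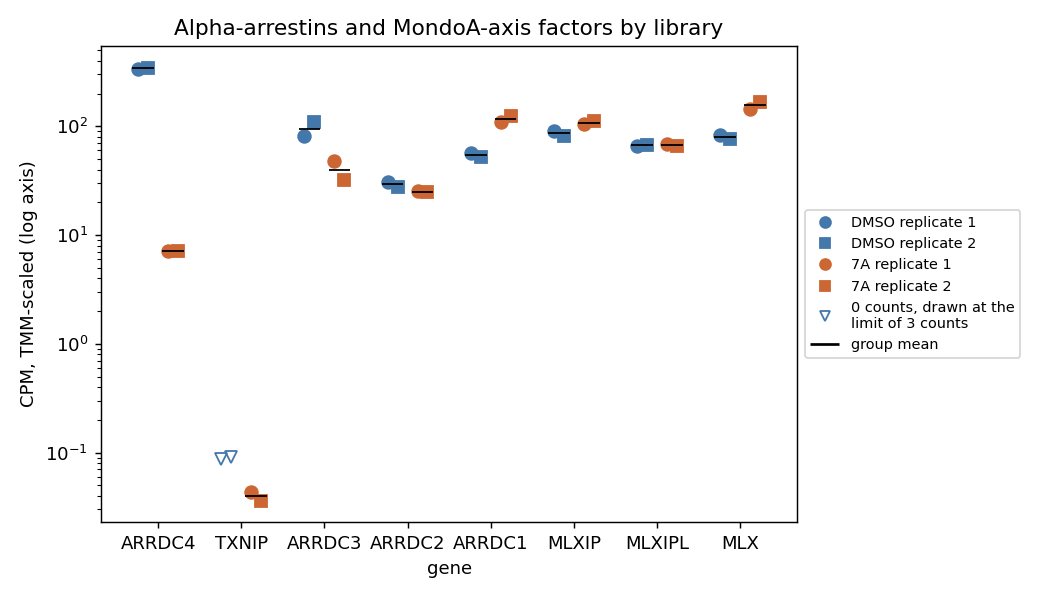
TMM-scaled CPM (log axis) of the 8 genes in each of the 4 libraries, with circles for replicate 1, squares for replicate 2 and a line at each group mean. ARRDC4 drops from about 342 to 7.11 CPM, TXNIP lies at or below the limit of detection throughout, and the other 6 genes stay between 24.7 and 168 CPM.

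ARRDC4 (ENSG00000140450), the glucose-responsive alpha-arrestin, lies on chromosome 15 at 97960698 to 97973838 of GRCh38. It had 11495 and 11337 counts with DMSO and 330 and 391 with 7A. In scaled units that is 337 and 347 CPM against 7.14 and 7.08 CPM. The replicates of each group were nearly equal, while the groups lay 48.1-fold apart, a log2 fold change of -5.59 ± 0.14. Leaving out each library in turn gave -5.60 to -5.56. Per kb of exon, ARRDC4 stood above 97.5% of tested genes with DMSO and above 31.8% with 7A. Of the 14026 tested genes, 21 had a lower log2 fold change, and the best expressed of those 21 had a DMSO mean of 0.873 CPM.

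TXNIP (ENSG00000265972, chromosome 1, 145992435 to 145996600), the thioredoxin-binding alpha-arrestin, had 0 and 0 counts with DMSO and 2 and 2 counts with 7A. All 4 values are at or under 3 counts, so TXNIP was not detectable above that limit in either group and no fold is given. The nearest tested gene on its left is POLR3GL, a subunit gene of RNA polymerase III, 13.6 kb away. POLR3GL had 1014 and 1028 counts with DMSO and 1453 and 1794 with 7A. On the right, 68.1 kb away, NBPF10 had 1063 and 1288 counts with DMSO and 655 and 741 with 7A; it belongs to a family of near-identical copies, so its counts are uncertain. The flanking genes were therefore counted in libraries where TXNIP was not, and why TXNIP had almost no counts was not tested. How reads were mapped and counted is not described in enough detail to tell a low transcript level from reads that were not counted, so the 0 counts are given as the table has them.

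The sequences before the starts of ARRDC4 and TXNIP are shown because these genes share a known regulator while the DMSO libraries held many counts for ARRDC4 and 0 for TXNIP. Each run is the 250 bases before the RefSeq start on GRCh38.p14, written 5′ to 3′ on the gene's own strand (plus for ARRDC4, chr15:97960453-97960702; minus for TXNIP, chr1:145996580-145996829). Capitals mark the closest match to a pair of E-boxes, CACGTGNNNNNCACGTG, and every CCAAT on either strand.
ARRDC4: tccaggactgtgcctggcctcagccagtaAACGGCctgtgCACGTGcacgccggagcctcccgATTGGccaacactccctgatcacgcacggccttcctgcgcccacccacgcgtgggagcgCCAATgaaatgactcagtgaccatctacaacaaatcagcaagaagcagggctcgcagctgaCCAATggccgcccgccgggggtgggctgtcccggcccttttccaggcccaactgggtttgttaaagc
TXNIP: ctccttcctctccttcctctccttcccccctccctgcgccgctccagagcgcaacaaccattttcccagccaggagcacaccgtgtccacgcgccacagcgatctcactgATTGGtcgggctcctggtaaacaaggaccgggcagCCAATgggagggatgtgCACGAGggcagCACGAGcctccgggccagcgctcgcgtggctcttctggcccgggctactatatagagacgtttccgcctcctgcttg
The motifs were chosen with these sequences in view, and a match is a description of letters. The TXNIP pair, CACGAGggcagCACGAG at -88 to -72 from the start (chr1:145996651-145996667), differed from the full pair at 2 of its fixed letters. A match that close was found in 1.01% of 35116 RefSeq promoter windows of 300 bases. The closest ARRDC4 match, AACGGCctgtgCACGTG at -221 to -205 from the start (chr15:97960482-97960498), had 3 mismatches and ended in an exact CACGTG. At most 3 mismatches were found in 9.24% of windows, and an exact CACGTG in 7.26%. Either-strand CCAAT occurred 3 times for ARRDC4 and 2 times for TXNIP, where 3.26% of windows held at least 3 and 10.8% at least 2.

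The closest matches of the other members are set beside these as letters only, and whether any match bears on expression was not tested. MLX, ARRDC2 and MLXIPL each had a closest match with 3 mismatches, and only that of MLX, on the plus strand at chr17:42567039-42567055, held an exact CACGTG.
MLX: CGGGCGcgggtCACGTG
ARRDC2: CCCGCGtgcgtCACGGG
MLXIPL: CACCGGgttctCACCTG
In the first windows of ARRDC3 and MLXIP the closest match had 4 mismatches, and in that of ARRDC1 it had 5; a second ARRDC3 window, at another annotated start, held a match with 3. A closest match of 3 mismatches was thus seen in the first windows of ARRDC4, MLX, ARRDC2 and MLXIPL and in the second window of ARRDC3.

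**Figure D2:**
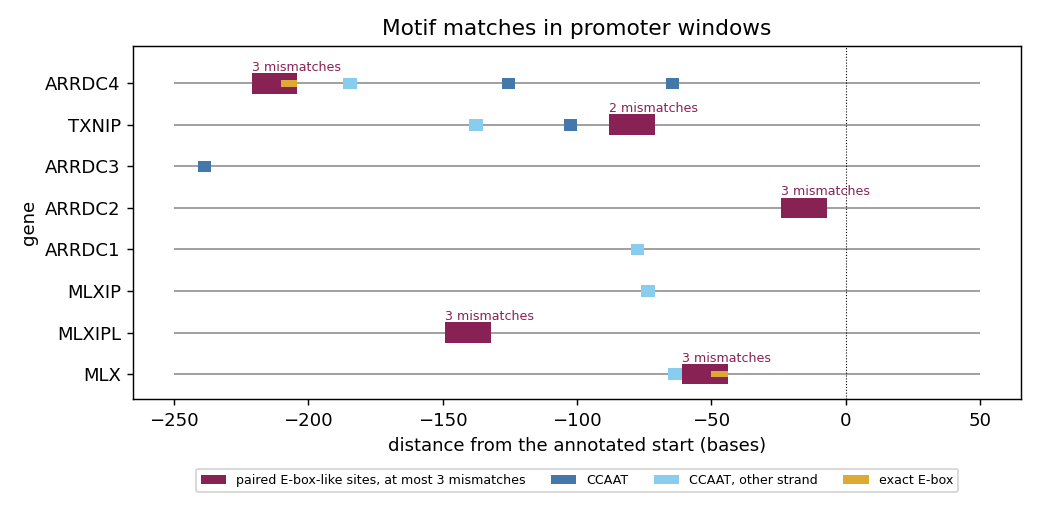
Positions of motif matches relative to the annotated start (bases, horizontal axis) in the first RefSeq promoter window of each gene. Wide blocks are the closest paired E-box-like match where it had at most 3 mismatches, narrow blocks are CCAAT on either strand, and inset blocks are exact E-boxes, present in ARRDC4 and MLX.

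ARRDC3 (ENSG00000113369, chromosome 5, 91368724 to 91383359), an adaptor that directs adrenergic receptors and integrin beta 4 to degradation, was lower with 7A. It read 81.1 and 109 CPM with DMSO and 47.9 and 32.3 CPM with 7A. Its libraries were the least even of the tested members, the higher being 1.34 times the lower with DMSO and 1.49 times with 7A, but the groups did not overlap. The log2 fold change was -1.25 ± 0.24. Without 7A replicate 2 it was -0.99 and the call was narrowly lost, at an edgeR adjusted p of 0.05 after rounding.

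ARRDC2 (ENSG00000105643, chromosome 19, 18001132 to 18014102), a less studied alpha-arrestin, read 30.6 and 27.8 CPM with DMSO and 25.6 and 24.7 CPM with 7A. The 7A libraries were both below the DMSO libraries, by a log2 fold change of -0.22 ± 0.15 that was not called. With library totals alone as the scaling it was -0.48 and called, and a correction for transcript length and GC gave -0.47, also called.

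ARRDC1 (ENSG00000197070, chromosome 9, 137605654 to 137615360), which recruits TSG101 to the plasma membrane and drives budding of small vesicles, was higher with 7A. It read 57.1 and 52.4 CPM with DMSO and 109 and 126 CPM with 7A. Every 7A library was above every DMSO library, with a log2 fold change of 1.10 ± 0.14, which ranged from 0.78 to 1.22 over 15 other settings and kept its call in each. Among the tested alpha-arrestins ARRDC4 and ARRDC3 were called lower, ARRDC1 was called higher and ARRDC2 was not called. The signs of their log2 fold changes held under all the scalings tried. Over all tested genes 23.9% were called higher and 24.6% lower, so nothing is read from this split.

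The alpha-arrestin make-up of the libraries restates the values above. ARRDC4 was selected for its fall, so the lower sum and its smaller share are no further result. Summed over the 5 genes, CPM per kb of exon came to 121 and 127 with DMSO and 45.5 and 46.5 with 7A. ARRDC4 made up 68.5% and 67.1% of that sum with DMSO and 3.85% and 3.74% with 7A. ARRDC1 made up 12.4% and 10.8% with DMSO and 62.6% and 70.7% with 7A. Among the alpha-arrestins that were counted, the leading transcript was therefore ARRDC4 in the DMSO libraries and ARRDC1 in the 7A libraries, with TXNIP entering the sum at its few counts.

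**Figure D3:**
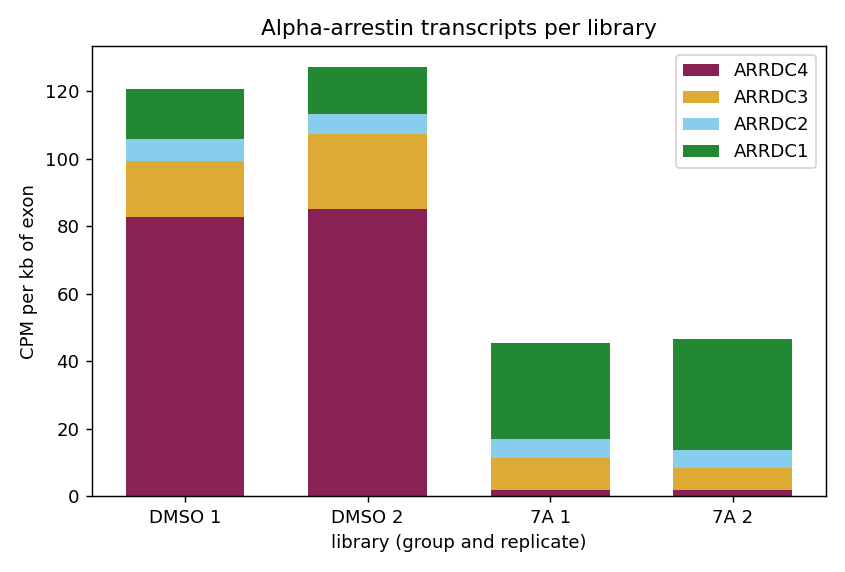
Stacked bars of CPM per kb of exon for ARRDC4, ARRDC3, ARRDC2 and ARRDC1 in each library; TXNIP is too low to draw. Bars reach 121 and 127 with DMSO and 45.5 and 46.5 with 7A, and the largest block changes from ARRDC4 to ARRDC1.

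MLXIP (ENSG00000175727, chromosome 12, 122078722 to 122147347), encoding MondoA, read 90.7 and 81.7 CPM with DMSO and 104 and 112 CPM with 7A. Both 7A libraries were above both DMSO libraries, by 0.33 ± 0.13 on the log2 scale, and it was not called. The correction for length and GC gave 0.56 with a call, and library totals alone gave 0.06 without a call. MLXIPL (ENSG00000009950, chromosome 7, 73593194 to 73624543), encoding ChREBP, read 66.5 and 67.0 CPM with DMSO and 69.2 and 66.0 CPM with 7A. Its groups overlapped and its log2 fold change was 0.02 ± 0.13, with a sign that turned under several settings.

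MLX (ENSG00000108788, chromosome 17, 42567068 to 42573239), the shared dimer partner, was higher with 7A. It read 82.7 and 76.9 CPM with DMSO and 144 and 168 CPM with 7A, without overlap. Its log2 fold change was 0.97 ± 0.13, from 0.70 to 1.09 over 15 other settings, and it was called in each. MLX shares 770 exon bases with PSMC3IP, a recombination factor gene on the opposite strand, and whether the counting used strand is not given, so the split of reads there is uncertain. PSMC3IP itself read 6.86 and 7.10 CPM with DMSO and 12.2 and 16.5 CPM with 7A. Other members share exon bases with genes that have no row in the count table. ARRDC2 shares 442 with AC020904.3, ARRDC1 183 with AL590627.2 and 29 with ARRDC1-AS1, and ARRDC3 145 with ARRDC3-AS1. Whether reads from those genes entered the counts was not tested. Per kb, the ratio of MLX to MLXIP was 2.98 and 3.08 with DMSO and 4.50 and 4.89 with 7A. By these ratios MLX stayed above MLXIP, and further above it in both 7A libraries. The log2 fold changes of MLX and MLXIP were 0.97 and 0.33 as scaled by TMM. After the length and GC correction they lay closer together, at 0.82 and 0.56.

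On the scale of CPM per kb of merged exons, the order with DMSO was ARRDC4 (84.0 ± 1.73, SD, n = 2), ARRDC3 (19.3 ± 4.0), MLX (18.7 ± 0.96), ARRDC1 (14.3 ± 0.86), MLXIPL (13.9 ± 0.07), ARRDC2 (6.30 ± 0.43) and MLXIP (6.20 ± 0.46), with TXNIP listed at 0 counts. ARRDC3 and MLX, ARRDC1 and MLXIPL, and ARRDC2 and MLXIP did not differ beyond their spread. With 7A it was MLX (36.6 ± 3.94), ARRDC1 (30.7 ± 3.10), MLXIPL (14.0 ± 0.47), ARRDC3 (8.13 ± 2.25), MLXIP (7.78 ± 0.39), ARRDC2 (5.42 ± 0.14) and ARRDC4 (1.75 ± 0.01). The ranges of mean ± SD overlapped for MLX and ARRDC1, and for ARRDC3 and MLXIP. MLXIP has 13.905 kb of merged exons, more than the transcript expressed may hold, so its level per kb may be understated.

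**Figure D4:**
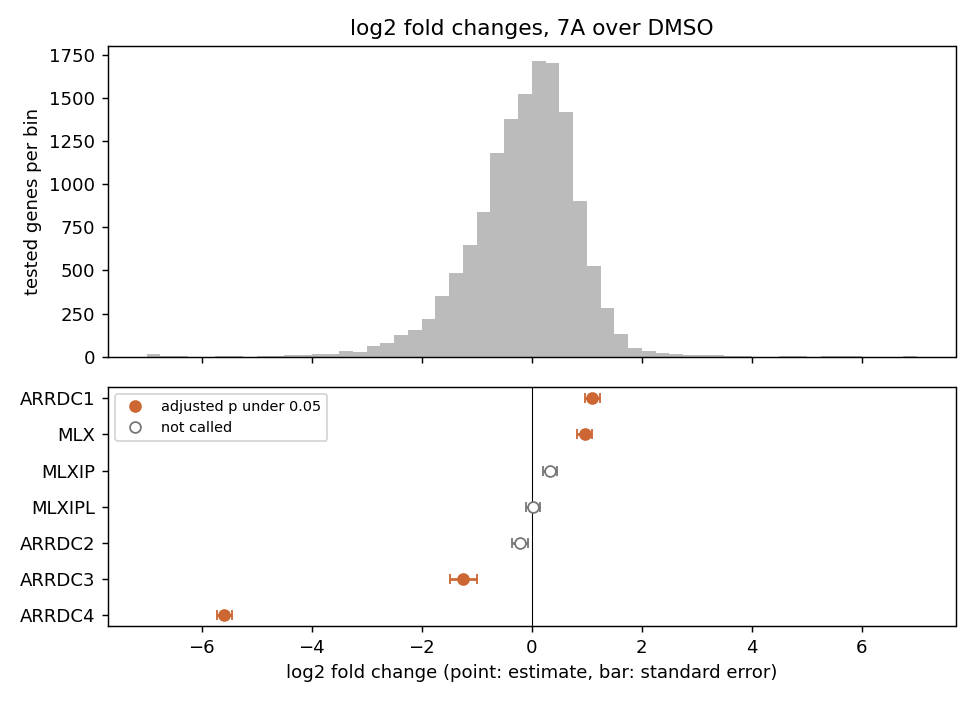
Top, number of tested genes per bin of log2 fold change (7A over DMSO), with values beyond the axis in the end bins; bottom, log2 fold change of each tested member with its standard error, filled where called. ARRDC4 at -5.59 stands in the far left tail, while the other 6 lie between -1.25 and 1.10.

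The genes whose 4-library pattern lay nearest to that of ARRDC4 were sought among tested genes of at least 10 CPM, by Euclidean distance between log2 CPM profiles centred on the DMSO mean. They were ZBTB20 (distance 2.55), FAT4 (2.65) and ZNF292 (3.83). ARRDC4 was selected as the deepest fall among well-expressed genes, so these distances say nothing further about it, and all 3 reached 10 CPM on average through their DMSO libraries, their 7A means being 3.03, 1.37 and 4.52 CPM. ZBTB20, a zinc finger repressor gene, read 25.0 and 129 CPM with DMSO and 4.11 and 1.96 CPM with 7A, uneven between the DMSO libraries, and was not called (edgeR adjusted p 0.0804). It was called lower without DMSO replicate 1 (edgeR adjusted p 0.00369), without DMSO replicate 2 (0.00916) and by DESeq2 (0.000211). ZNF292, a zinc finger gene, read 19.9 and 65.8 CPM with DMSO and 5.38 and 3.66 CPM with 7A and was not called either (edgeR adjusted p 0.0541), but it was called lower under 6 other settings, among them without DMSO replicate 1 (0.00118) and without DMSO replicate 2 (0.00407). FAT4, an atypical cadherin gene, read 15.7 and 21.9 CPM with DMSO and 1.45 and 1.29 CPM with 7A, and was called lower at -3.78 ± 0.25 (edgeR adjusted p 0.000471). TXNIP had no such search, because it was not tested.

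The nearest tested genes on the chromosome gave mixed values. Beside ARRDC4, NR2F2, an orphan nuclear receptor gene 1620.4 kb to the left, differed by 0.21 ± 0.20 and was not called (0.50 with a call without 7A replicate 1, edgeR adjusted p 0.0306; -0.06 with library totals alone and -0.11 without 7A replicate 2), and the insulin-like growth factor receptor gene IGF1R, 674.7 kb to the right, fell by 1.12 (edgeR adjusted p 0.00121). The neighbours of ARRDC3, ADGRV1 and NR2F1, fell by 2.44 and 0.66 (edgeR adjusted p 0.00197 and 0.00354), and ADGRV1 by 1.41 after the length and GC correction. Beside ARRDC1, ZMYND19 rose by 0.79 ± 0.15 (edgeR adjusted p 0.00451), or by 0.53 with library totals alone and 0.39 after the length and GC correction. EHMT1, a histone methyltransferase gene, differed by 0.42 ± 0.19 without a call, and by 0.93 with one after that correction. Beside ARRDC2, KCNN1, a potassium channel gene, fell by 1.02 ± 0.33 from a DMSO mean of 1.85 CPM (edgeR adjusted p 0.0385). The KCNN1 call was lost when any 1 library was left out (0.0639 to 0.199) and by DESeq2 (0.120). The kinase gene MAST3 at -0.34 ± 0.14 was not called, but was called lower with upper-quartile scaling, library totals alone, the 5 CPM filter and the length and GC correction (edgeR adjusted p 0.0128 to 0.0376).

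Genes that act with the alpha-arrestins were read from lists, each beside all tested genes, of which 23.9% rose and 24.6% fell with a median of -0.03. Counts near those shares are no property of a list. Of 9 NEDD4-family ligases tested, 2 fell and 0 rose, with a median of -0.29. NEDD4 fell by 0.75 ± 0.17, with means of 28.7 ± 0.47 and 17.1 ± 2.65 CPM (edgeR adjusted p 0.0097), and WWP1 fell by 0.90 ± 0.28, from 77.9 to 41.7 CPM (0.0484). ITCH, the ligase known to ubiquitinate TXNIP, read 58.0 and 97.8 CPM with DMSO and 34.0 and 46.6 CPM with 7A and did not pass (edgeR adjusted p 0.0529), nor did HECW2 (0.0530). Both were close to the threshold. ITCH was called lower with upper-quartile scaling (0.0410), library totals alone (0.0229), the 5 CPM filter (0.0430), without DMSO replicate 1 (0.00916) and by DESeq2 (adjusted p 0.00413). HECW2 was called lower under upper-quartile scaling (0.0346), totals alone (0.0340), no filter (0.0421), counts divided by 2 (0.0480), thinned counts (0.0450) and without 7A replicate 1 (0.0295). Without DMSO replicate 2 neither NEDD4 nor WWP1 was called (edgeR adjusted p 0.0565 and 0.144), and WWP1 was also lost without 7A replicate 2 (0.171) and with no filter on low counts (0.0566). With library totals alone 6 of the 9 were lower. After the length and GC correction 2 rose and 2 fell, the median was -0.15, and NEDD4 fell by 0.37.

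Among genes of the ESCRT machinery, which ARRDC1 uses in vesicle budding, 4 of 10 rose and 1 fell, with a median of 0.44. The subunit gene MVB12A rose by 0.83 ± 0.14 (edgeR adjusted p 0.00317; 45.9 to 81.7 CPM), the ATPase gene VPS4A by 0.60 ± 0.12 (106 to 160 CPM; 0.00572; 0.33 with library totals alone) and VPS28 by 0.55 ± 0.14 (0.0179). PDCD6IP, which encodes ALIX, fell by 0.86 ± 0.17, or 144 CPM against 79.0 (edgeR adjusted p 0.00594), a call lost without 7A replicate 2 (0.0665) and a fall by 0.42 after the length and GC correction. TSG101, the direct ARRDC1 partner, read 58.2 and 58.3 CPM as group means (0.00 ± 0.14). The number higher was 2 without DMSO replicate 1, without DMSO replicate 2, without 7A replicate 2 and with library totals alone. VPS28 lost its call in each of these and under the length and GC correction (edgeR adjusted p 0.064 to 0.132).

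The thioredoxin system, whose reduced thioredoxin TXNIP binds, was higher in most of its genes. Of 16 tested, 12 rose and 0 fell, with a median of 0.62 and values from 0.02 to 1.02. Thioredoxin itself, TXN, rose by 1.02 ± 0.12 (edgeR adjusted p 0.00112), or by 0.75 with library totals alone. Its group means were 201 ± 14.8 CPM with DMSO and 408 ± 0.84 CPM with 7A. TXNL1 rose by 0.82 ± 0.13 (0.55 with library totals alone and 1.32 after the length and GC correction). The mitochondrial peroxiredoxin gene PRDX3 rose by 0.71 ± 0.13 (213 to 348 CPM), or by 0.44 with library totals alone. PRDX2 rose by 0.65 ± 0.12 (175 to 275 CPM), or by 0.38 with library totals alone. After the length and GC correction PRDX2 rose by 0.266 and was not called (edgeR adjusted p 0.0532). The number higher was 7 with library totals alone and 8 after the length and GC correction, and 0 were lower in both. The medians were 0.36 and 0.41. Without DMSO replicate 2 the median was 0.61, but fewer of these genes were called higher than with all libraries.

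Of the MYC, MAX and MXD factors, some of which can pair with MLX, 1 rose and 3 fell among 9 tested. The number higher was 3 without 7A replicate 1, and 0 without DMSO replicate 2, without 7A replicate 2 and with library totals alone. MXD4, a repressor that pairs with MLX or MAX, fell by 0.88 ± 0.14, with 86.8 ± 8.62 CPM in DMSO and 47.1 ± 1.60 in 7A (edgeR adjusted p 0.00265). MNT, another such repressor, rose by 0.62 ± 0.17 (36.8 to 56.6 CPM; edgeR adjusted p 0.0217), a call lost without DMSO replicate 2 (0.154), without 7A replicate 2 (0.105) and with library totals alone (0.127). The giant MAX partner MGA fell by 1.70 ± 0.23 (edgeR adjusted p 0.00175; 36.5 to 11.2 CPM), or by 0.96 after the length and GC correction, and MXI1 by 0.51 ± 0.12 (0.0108; lost without DMSO replicate 1 at 0.0873 and without DMSO replicate 2 at 0.0516).

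Reported carbohydrate-response targets other than the alpha-arrestins went both ways. Of 15 tested, 8 rose and 2 fell, with a median of 0.60. With library totals alone 6 rose and 3 fell, with a median of 0.33. After the length and GC correction 8 rose and 3 fell, with a median of 0.37. Which regulators acted on these genes was not tested. The acetyl-CoA gene ACLY rose by 1.17 ± 0.12 (344 to 771 CPM; edgeR adjusted p 0.000872), malic enzyme ME1 by 1.25 ± 0.14 and the clock repressor gene BHLHE40 by 1.53 ± 0.16 (440 ± 44.3 to 1273 ± 226 CPM; 0.000945). KLF10, an early-response repressor gene, fell by 1.29 ± 0.15, with means of 153 ± 5.98 and 62.2 ± 10.3 CPM (edgeR adjusted p 0.00111). The other that fell, ACACB, did so by 1.10 ± 0.16. ARRDC4 was selected for the depth of its fall, so a comparison of depth with these genes was fixed in advance and is not made.

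Genes listed under glucose entry and trapping gave 5 higher and 3 lower of 17 tested, against 23.9% and 24.6% of all genes (median 0.10). G6PC3, a phosphatase that removes phosphate from glucose 6-phosphate, rose by 1.63 ± 0.21, its means being 17.7 ± 1.85 and 54.9 ± 14.2 CPM (edgeR adjusted p 0.00161). The transporter gene SLC2A6 rose by 0.93 ± 0.16, with means of 11.0 and 20.9 CPM (edgeR adjusted p 0.00379), and by 0.60 after the length and GC correction. The transporter gene SLC2A12 fell by 0.98 ± 0.16 (edgeR adjusted p 0.00263; 21.3 against 10.8 CPM). With library totals alone the split was 3 higher and 6 lower, and the number lower was 1 without DMSO replicate 1. Of 6 AMPK subunit genes tested, which encode the energy-sensing kinase that phosphorylates TXNIP, 2 fell: PRKAA2 by 1.51 ± 0.17 (edgeR adjusted p 0.00101; 24.7 against 8.69 CPM) and PRKAB2 by 0.50 ± 0.13 (0.0162). PRKAB2 lost its call without DMSO replicate 1 (0.113), without DMSO replicate 2 (0.0847) and under the length and GC correction (0.139). PRKAA1 and PRKAB1 did not pass (-0.36 ± 0.17 and 0.16 ± 0.15). PRKAA1 was called lower with upper-quartile scaling (edgeR adjusted p 0.0496) and library totals alone (0.0295), and 3 subunit genes were lower under each. PRKAB1 had a log2 fold change of -0.11 with library totals alone.

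Of 8 other genes listed with an arrestin fold, 5 were tested and 1 fell: the beta-arrestin gene ARRB1, by 0.69 ± 0.16, between means of 19.6 ± 0.27 and 12.1 ± 0.44 CPM (edgeR adjusted p 0.00981). Its edgeR adjusted p was 0.0545 without DMSO replicate 1 and 0.0571 without DMSO replicate 2, so the call was lost in both. ARRDC5, the remaining alpha-arrestin, was at 0 counts in all 4 libraries. The VPS26 genes VPS26B, VPS26C and VPS26A did not pass, at -0.31 ± 0.13, -0.20 ± 0.13 and -0.16 ± 0.17. VPS26B was called lower with upper-quartile scaling, library totals alone, the 5 CPM filter and the length and GC correction (edgeR adjusted p 0.0127 to 0.0429). VPS26C was called lower with library totals alone (0.0247) and had a log2 fold change of 0.05 after the length and GC correction, and VPS26A one of 0.01 without 7A replicate 2. The number of these 5 genes that fell was thus 3 with library totals alone and with the length and GC correction, 2 with upper-quartile scaling and the 5 CPM filter, and 0 without DMSO replicate 1 or without DMSO replicate 2.

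**Figure D5:**
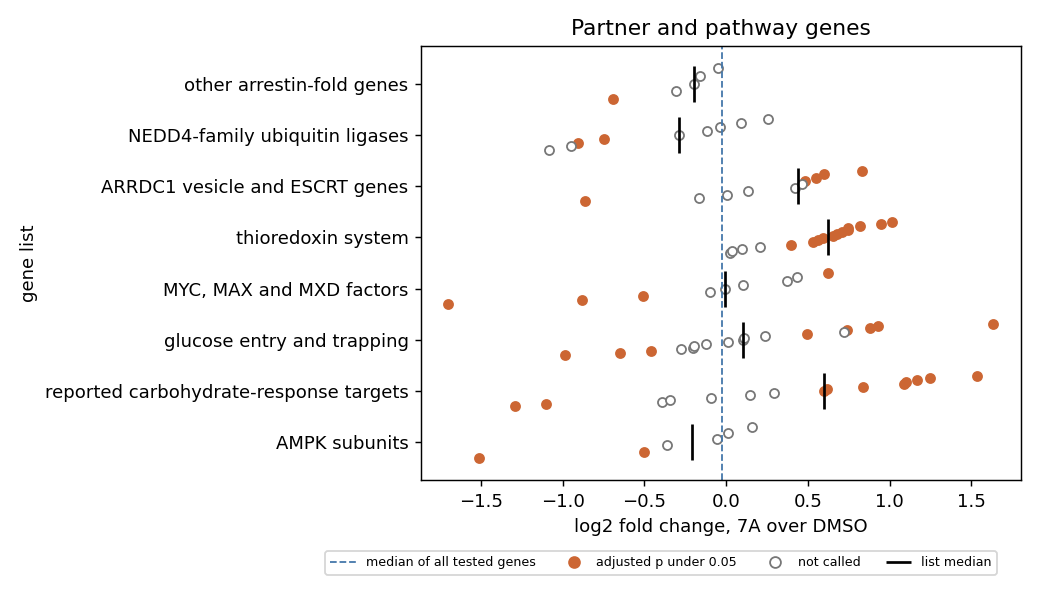
Log2 fold changes (7A over DMSO) of the tested genes of each list, filled where called, with a black bar at each list median and a dashed line at the median of all tested genes, -0.03. As scaled by TMM the thioredoxin points all lie above 0 (PRDX1, TXNDC12, TXNDC17 and TXNRD3 turn with library totals alone and in some other settings), those of the other arrestin-fold genes all lie below 0 (VPS26C turns after the length and GC correction, VPS26A without 7A replicate 2 and ARRB2 without 7A replicate 1), and the remaining 6 lists hold both signs.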

How the data were processed

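Libraries were made from 1.4 µg of total RNA per sample with a dual-mode mRNA kit, per the labels' protocols. The authors deposited raw counts per gene; that unit is read from the values, which are whole numbers and differ in total between libraries. Builds GRCm38, hg38 and mm10 appear together in the submitters' processing notes; aligner, counter and use of strand were not given in the sources. Symbols, positions and exon lengths come from GENCODE 29 (GRCh38), with 20224 of 20263 identifiers matched, and promoter sequences from RefSeq (GRCh38.p14).

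Counts were fitted with edgeR 4.0.16 in R 4.3.3 over all 14026 genes that passed filterByExpr (minimum count 10), with TMM scaling, the robust quasi-likelihood F test and Benjamini-Hochberg adjustment at 0.05. The standard error is the log2 fold change over the square root of F. The labels do not say whether replicates came from separate cultures, and p-values therefore cover the spread of these libraries alone, which may be technical. An exact permutation test of 2 against 2 cannot go below 0.333, so calls rest on edgeR sharing the spread across genes. Replicates of a group were not copies of each other (chi-square of their counts, divided by the degrees of freedom, 37.6 for DMSO and 81.0 for 7A). The fit was also run on data simulated from its own dispersions, with few genes changed and equally in both directions. That run does not test the scaling of these libraries.

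The members and lists were chosen with earlier results of these data known. Named genes were the members, up to 4 per list with the smallest adjusted p and at least 1 per called direction, the 3 nearest patterns and the flanking tested genes; ACACB, TSG101 and ARRDC5 were added after their values were seen. A gene that this rule names is not reported here. Alternatives were DESeq2 1.42.0, RLE and upper-quartile scaling, library totals alone, no filter, 5 CPM in 2 libraries, a replicate block, a threshold of 0.01, each library left out, a spline correction for length and GC, counts divided by 2, and thinning to 29769568 counts. Python 3.11.15 with pandas 2.3.3 and matplotlib 3.10.9 made the tables and plots.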

Additional observations from a re-analysis of the deposited data

How the results depend on the processing

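ARRDC4, ARRDC1 and MLX kept direction and call under all 15 settings tried, and ARRDC3 under 14, the exception being without 7A replicate 2. The uncalled MLXIPL turned negative with upper-quartile scaling (-0.094), library totals alone (-0.25), the 5 CPM filter (-0.0665) and the length and GC correction (-0.25). Over all genes, 3349 were higher and 3446 lower. A threshold of 0.01 gave 2049 and 1811. Scaling by totals alone gave 1951 higher and 4934 lower, 28.3% higher against 49.3%, and the median of all genes moved from -0.03 to -0.29 (-0.14 with upper-quartile scaling). Leaving out each library gave 1925 to 3054 higher and 1939 to 2619 lower over all genes, and 1 to 2 members lower. The samples share only a replicate number: the correlation of same-numbered deviations was -0.05, and the replicate block gave 3029 higher and 3187 lower with 2 members in each direction. Under the block ITCH and HECW2 were called lower (edgeR adjusted p 0.00153 and 0.0345) and WWP1 was not called (0.0541). With 2 libraries per group and 1 contrast, the spread of any single gene is poorly known. DESeq2 gave 3556 higher and 3179 lower.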
